A study of Mus musculus with 2 samples.

Results

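Il33 and Il1rl1, the genes of the cytokine IL-33 and of its receptor ST2, were followed over all clusters of cells, stromal and other. The cells came from mouse salivary gland organoids, aggregates of cells kept in culture to model the tissue. The members are these 2 genes out of 5238 genes named in any of 3 deposited cluster tables, and every row that names either of them was taken, 37 rows in all. The pair was chosen by the shares and log ratios listed in these tables, so its levels are a description and were not tested. The groups were 1 library of cells from organoids with FGF2, a fibroblast growth factor, and 1 library of control organoid cells. The mice of both groups were CD-1, which is an outbred stock, and the age label is embryonic day 16 with 7 added in a unit that the labels do not state. Nor do they state the dose or timing of FGF2. Per the labels, 10107 cells of the FGF2 organoids and 5023 cells of the control organoids were captured.

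IL-33 is a cytokine of the IL-1 family that is stored in the nucleus, where it binds chromatin, and is released when cells are damaged, for which it is called an alarmin. In many tissues its main sources are fibroblasts, endothelium and barrier epithelium. Il1rl1 encodes ST2, which exists as a membrane receptor that signals together with the shared subunit Il1rap through Myd88 and NF-kB, and as a short soluble form that binds IL-33 without signalling. Mast cells, type 2 innate lymphoid cells and regulatory T cells are the classical carriers of the membrane form. The gene was originally found in mouse fibroblasts as one induced by serum, and fibroblasts are known as a source of the soluble form.

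Il33 lies on mouse chromosome 19 (chr19:29925114-29960718, plus strand) and Il1rl1 on chromosome 1 (chr1:40429570-40465415, plus strand), in the GRCm38 coordinates of GENCODE M21, the assembly also called mm10. Each gene has 2 start sites with a promoter window in the RefSeq table for GRCm38.p6, 20677 bases apart in Il33 and 10059 bases apart in Il1rl1. The annotated Il1rl1 transcripts also end in different places. A transcript of 11 exons runs to base 40465415, while a pair of shorter ones with 8 exons each stop at bases 40446723 and 40448148. The assay tagged the 3' end of transcripts, but the tables hold 1 value per gene, so membrane and soluble ST2 and the start sites cannot be told apart here. The 4 windows are shown because they are where a reader would look for differences between the start sites. Each runs from 250 bases before to 50 bases after a start, on the plus strand, with matches to the searched motifs in capitals:
Il33 upstream start, chr19:29924863-29925162: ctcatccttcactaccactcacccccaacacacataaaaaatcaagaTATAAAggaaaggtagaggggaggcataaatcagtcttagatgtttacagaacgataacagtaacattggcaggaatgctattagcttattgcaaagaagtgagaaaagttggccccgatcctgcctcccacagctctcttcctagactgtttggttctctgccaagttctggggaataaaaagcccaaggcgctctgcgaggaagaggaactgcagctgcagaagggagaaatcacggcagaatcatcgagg
Il33 downstream start, chr19:29945540-29945839: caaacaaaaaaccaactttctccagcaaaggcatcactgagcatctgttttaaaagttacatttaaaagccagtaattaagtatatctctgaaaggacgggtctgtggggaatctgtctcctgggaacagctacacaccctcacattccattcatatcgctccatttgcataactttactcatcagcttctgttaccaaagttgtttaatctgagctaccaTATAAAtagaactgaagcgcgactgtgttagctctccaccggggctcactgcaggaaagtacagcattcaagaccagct
Il1rl1 upstream start, chr1:40429320-40429619: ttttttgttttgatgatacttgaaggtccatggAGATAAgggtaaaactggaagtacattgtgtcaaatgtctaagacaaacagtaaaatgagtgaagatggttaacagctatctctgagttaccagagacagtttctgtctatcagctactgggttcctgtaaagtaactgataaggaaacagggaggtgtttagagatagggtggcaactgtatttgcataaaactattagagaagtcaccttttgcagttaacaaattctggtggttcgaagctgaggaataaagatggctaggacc
Il1rl1 downstream start, chr1:40439379-40439678: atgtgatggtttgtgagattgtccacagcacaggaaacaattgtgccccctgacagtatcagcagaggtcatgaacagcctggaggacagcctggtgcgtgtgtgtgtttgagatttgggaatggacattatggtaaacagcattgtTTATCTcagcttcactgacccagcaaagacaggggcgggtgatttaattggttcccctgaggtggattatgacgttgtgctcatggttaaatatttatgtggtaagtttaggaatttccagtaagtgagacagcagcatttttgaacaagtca

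The motifs were searched on both strands, and a distance is that of the first base of the match. Both Il33 windows held TATAAA, the core of the TATA box, 203 bases before the upstream start and 29 bases before the downstream start. It was found in 13.6% of 32851 windows of the same length. Both Il1rl1 windows held AGATAA, a core bound by GATA factors, or its reverse complement TTATCT, 217 bases before the upstream start and 103 bases before the downstream start, and 11.2% of all windows held it. TGANTCA, the AP-1 motif (7.81% of windows), and ACGTG, the core of the hypoxia response element (19.6%), were in none of the 4 windows. A match is a description of letters, not of a bound site.

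Each deposited table sets every cluster against the remaining cells of that table. It gives the share of cells with a count inside and outside the cluster, and the natural log of the ratio of the 2 averages, which carry an offset of 1 and so understate differences of low genes. A gene is listed for a cluster when the log ratio is at least 0.25 in size, the larger share is at least 25.1% (25.3% in the integrated table) and the authors' p-value is at most 0.00999. Those p-values rest on cells of 1 library, which are not replicates, and are not printed. Depth per cell and the exact cell numbers behind the shares are not given here, so shares are given without intervals. The smallest clusters hold few of the captured cells, so their shares rest on small counts. Clusters were called by their leading genes. All 9 fibroblast markers, such as Pdgfra and Col1a1, had library-wide shares within 1.5-fold between the libraries, with a median log2 ratio of 0.08. Of all 2318 genes compared 77.4% did, so this count is not a result about the fibroblasts. Pdgfrb was found in 57.6% of the FGF2 cells and 82.0% of the control cells. The clusters of the FGF2 library named for epithelial, Schwann or glial, leukocyte or mast cell markers made up at most 2.88% of its cells each.

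Of the 2 libraries, that of the FGF2 organoids alone had entries for Il33. The authors' deposited table lists it for 10 of 17 FGF2 clusters, as higher in 2 and as lower in 8. Over all genes and clusters of that library 2.27% of pairs were listed, 0.785% as higher and 1.48% as lower. The members were chosen on these listings, so nothing is read from the comparison with these background shares. The authors' deposited control table, with 15 clusters, does not name Il33 at all. The share of Il33-positive cells over the whole FGF2 library, recovered from the listed shares, was 41.7%, and the 10 clusters gave values of this share between 41.67% and 41.73%.

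Among the 10 listed clusters, Il33 was highest in FGF2 cluster 3, which made up 9.87% of the FGF2 cells and was led by Ero1l, Il33 and Fam162a. The authors' deposited table gave Il33 in 79.8% of its cells, against 37.5% of the other cells, with averages 3.28-fold apart. The next of the listed clusters was cluster 8 (5.55% of the cells, led by Mgp, Pla1a and Ccl8), where the authors' deposited table gave 59.3% in the cluster against 40.7% outside and a 1.43-fold ratio of averages. Together the 2 clusters were 15.4% of the FGF2 cells and held 26.8% of the Il33-positive cells. These 2 clusters differed in the listed genes. The hypoxia list was chosen with earlier results of these data known. It holds Ero1l, Fam162a and Slc2a1, which are leading genes of cluster 3, so its counts here and below are a description. Of 18 hypoxia genes, 16 were listed as higher in cluster 3, where 0.553% of all genes were, including the glucose transporter gene Slc2a1 (93.0% of the cells against 61.8% outside in the authors' deposited table) and the oxidative folding gene Ero1l (94.3% against 53.2%). In cluster 8, where 0.553% of all genes were listed as higher, 0 of the 18 were, and 3 (Fam162a, Pgk1 and Adm) were listed as lower, where 0.369% of all genes were, while 5 of 9 fibroblast markers (Pdgfrb, Col1a1, Col1a2, Lum and Thy1) were listed as higher.

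The remaining listed stromal clusters carried less Il33 than the rest. In the authors' deposited table, Il33 was found in 35.7% of cluster 6 (led by Cavin2, Cemip and Ccl2, 42.1% outside) and in 31.9% of the contractile cluster 4 (led by Acta2 and Tagln, 42.5% outside). It was found in 21.1% of cluster 5 (led by Igfbp5 and Cd24a, 43.3% outside) and in 16.3% of cluster 2 (led by Igfbp3 and Lpl, 44.8% outside) in the same authors' deposited table. The median gene listed for cluster 4 was found in 87.1% of its cells (64.6% outside) and that for cluster 6 in 81.0% (62.1% outside). Of the listed genes, 197 of 360 in cluster 4 and 57 of 101 in cluster 6 were listed as higher. These medians therefore follow in part from the listing and do not measure depth, and the part of depth in the Il33 values was not tested. Between the highest and the lowest listed cluster, cluster 3 and the Schwann or glial-like cluster 16, the averages with their offset differed 6.19-fold. Cluster 16 was 0.307% of the FGF2 cells, so its values rest on few cells.

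In 3 clusters of non-stromal markers Il33 had low shares, and the leukocyte-like cluster 14 has no entry for it. The authors' deposited table gave it in 12.4% of the epithelial-like cluster 11, in 9.4% of the mast cell-led cluster 15 and in 6.5% of the Schwann or glial-like cluster 16. The contractile cluster 13, at 8.5% in the authors' deposited table, stood beside them. In these 4 clusters (11, 15, 16 and 13) the median listed gene was found in 28.5%, 21.9%, 16.1% and 12% of the cells, against 58.8% or more outside, and the part of that difference in the Il33 values was not tested. For scale, the authors' deposited table gave the 11 mast markers listed for cluster 15 in 0 to 7.3% of other FGF2 cells (median 1.8%). The Il33 share of cluster 16 lies inside that range and is not read as expression. The range does not measure the background of Il33 itself. The 7 FGF2 clusters without an Il33 entry (0, 1, 7, 9, 10, 12 and 14) together had Il33 in 46.6% of their cells and held 52.6% of the Il33-positive cells. A cluster without an entry was therefore not a cluster without Il33.

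**Figure D1:**
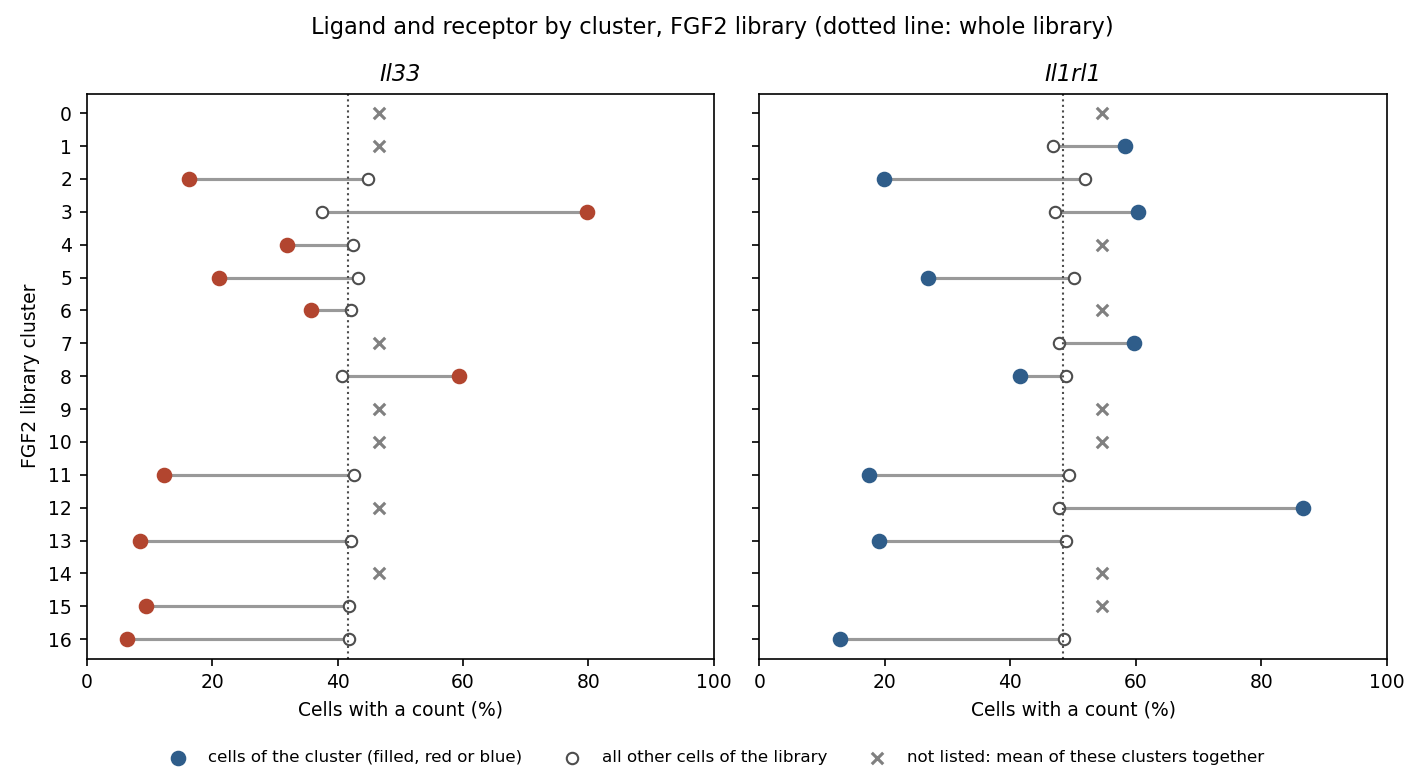
Share of cells with a count of Il33 (left) and Il1rl1 (right) in each of the 17 clusters of the FGF2 library, as a percentage. Filled points are the cells of the cluster and open points all other cells, from the authors' deposited table; crosses give the combined share of the clusters that have no entry (46.6% for Il33 and 54.6% for Il1rl1), and the dotted line the whole library. Il33 stands out in cluster 3 at 79.8% and Il1rl1 in cluster 12 at 86.7%.

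Il1rl1 was found in 48.4% of the FGF2 cells and 2.90% of the control cells, a ratio of 16.7 on the recovered shares and a log2 ratio of 4.02 with 0.1 percentage points added to each share. It ranked 5th among 2318 genes compared between the libraries, of which 7.46% were at least 1.5-fold higher in the FGF2 library and 15.1% at least 1.5-fold lower. This contrast was used to choose the gene and there was 1 library a group, so the ratio has no replicate check. In the authors' deposited table of the control library, 11 macrophage markers were found in 0.3 to 13.3% of the cells outside the macrophage-like cluster 11 (median 1.6%). The control share of Il1rl1 lies inside that range, which is wide and does not measure the background of Il1rl1 itself. Whether these control counts are expression or background was not tested, so the size of the ratio is uncertain. The same comparison could not be made for Il33, for which the control library gave no value. Of all 3058 genes listed for any FGF2 cluster, 735 (24.0%) had no control entry. Of the 103 genes listed for at least 10 FGF2 clusters, 12 (11.7%) had none. Beside Il33 these were Areg, Cck, Gm12840, Gm43154, Hgf, Mcpt8, Prkg2, Sema3a, Slc14a1, Slpi and Sod3, named because the count is small and after their values were seen. A gene at any even level, or in under 25.1% of the cells of every cluster, would also have no entry, so the missing entry is not an absence of Il33 from control cells.

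Within the FGF2 library, the authors' deposited table listed Il1rl1 for 10 of 17 clusters, as higher in 4 and as lower in 6. Of the 10 listed clusters it was highest by share in cluster 12, a small cluster (1.96% of the cells) led by the monocyte chemokine genes Ccl7 and Ccl2. The authors' deposited table gave Il1rl1 in 86.7% of its cells, against 47.7% of the other cells. Il1rl1 was the 4th gene by ratio in that cluster, for which the table lists 15 genes as higher. The median gene listed for cluster 12 was found in 96.9% of its cells and 78.4% outside, and the averages of Il1rl1 in the authors' deposited table were 1.45-fold apart.

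The other 3 clusters with more Il1rl1 lay close together. In the authors' deposited table the receptor was found in 60.3% of the cells of cluster 3 (47.1% outside), 59.7% of cluster 7 (47.7% outside, led by Igfbp5, Il11 and Slpi) and 58.2% of cluster 1 (46.8% outside, led by Cck, Odc1 and Tac1). Their order has no replicate behind it and is not resolved. By ratio of averages cluster 3 led with 1.56-fold, ahead of cluster 12 with 1.45-fold, cluster 1 with 1.40-fold and cluster 7 with 1.35-fold in the authors' deposited table, so the leading cluster depends on the measure. The 4 clusters were 32.0% of the FGF2 cells and held 40.2% of the Il1rl1-positive cells. Clusters 1 and 7 differed from cluster 3 in the hypoxia genes, of which 4 of 18 were listed as lower in cluster 1, where 0.344% of all genes were, and 7 in cluster 7, where 0.658% were. In neither was a hypoxia gene listed as higher. Genes of adventitial fibroblasts were listed as higher in both, 4 of 12 in cluster 1 (Cd34, Ly6a, Dcn and Twist2), where 0.374% of all genes were, and 3 in cluster 7 (Cd9, Dcn and Twist2), where 0.883% were, with Ly6a lower in cluster 7.

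Below the library share stood cluster 8 with 41.6%, cluster 5 with 26.9% and cluster 2 with 19.9% of cells in the authors' deposited table. Cluster 2 had the lowest Il1rl1 average of the listed clusters, 3.06-fold under that of the other cells in the authors' deposited table. The contractile cluster 13 (19.0%), the epithelial-like cluster 11 (17.5%) and the Schwann or glial-like cluster 16 (12.9%) were lowest by share among the 10 listed clusters in the authors' deposited table. These 3 are the clusters of low median shares named for Il33. The other 7 clusters (0, 4, 6, 9, 10, 14 and 15) combined had Il1rl1 in 54.6% of their cells and held 44.9% of the positive cells. The mast cell-led cluster 15 is among them. It is 0.639% of the FGF2 cells, and 11 of 12 mast markers were listed there as higher, such as the protease gene Cma1 (95.3% of cells against 7.3% outside in the authors' deposited table), the receptor gene Kit (70.3% against 1.4%) and the GATA factor gene Gata2 (73.4% against 2.5%). The authors' deposited table has no Il1rl1 entry for it, so the share of receptor-positive cells in this classical carrier of ST2 is not known from these data. With 48.4% of all FGF2 cells positive, most Il1rl1-positive cells lay outside the mast cell-led cluster and the leukocyte-like cluster 14 (0.651% of the cells).

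In the control library, the authors' deposited table listed Il1rl1 for 1 of 15 clusters, cluster 12, with 26.8% of cells against 2.7% outside and averages 2.64-fold apart. Over all genes and clusters of the control library 3.62% of pairs were listed, 1.69% as higher, and again nothing is read from this for a gene chosen on it. This cluster was 0.828% of the control cells, so its share rests on few cells. The cluster was led by Ccl2, Mt1 and Hmox1, genes of a monocyte chemokine, a metallothionein and heme oxygenase. It held 7.65% of the Il1rl1-positive control cells, and the other 92.3% were spread over clusters without an entry, at 2.70% of their cells on average, a level inside the range of macrophage markers in other control cells. Control cluster 12, the 1 listed, and FGF2 cluster 12, with the largest listed Il1rl1 share, were led by Ccl2 and by Ccl7. Both chemokine genes were also listed as higher in FGF2 clusters 4 and 6, which have no Il1rl1 entry. The authors' deposited table gave Ccl2 and Ccl7 in 89.1% and 93.0% of cluster 4 and in 91.9% and 95.8% of cluster 6. Of 27 response genes of IL-33-treated cells, Ccl2, Ccl7 and Ccl11 were listed as higher in FGF2 cluster 12, where 0.0748% of all genes were, and the same 3 with Cxcl1 in control cluster 12, where 2.5% of all genes were. None of the 27 was listed as lower in FGF2 cluster 12, but 15 of the 19 genes listed there are higher, so this 0 is not read as a difference. Vcam1 was listed as lower in control cluster 12, where 2.02% of all genes were. The other FGF2 clusters higher for Il1rl1 had response genes in both directions. Cluster 3 had 2 listed as higher (Areg and Ccl11), where 0.553% of all genes were. It had 3 listed as lower (Ccl2, Cxcl1 and Cxcl5), where 0.409% of all genes were. Cluster 7 had 3 higher (Ccl11, Csf2rb and Dusp2) and 3 lower (Areg, Ccl2 and Ccl7), where 0.883% and 0.658% of all genes were. Cluster 1 had Cxcl1 higher and Vcam1 lower, where 0.374% and 0.344% of all genes were. Control cluster 12 also had 11 of 18 hypoxia genes and 5 of 14 NF-kB genes (Nfkb1, Nfkb2, Rela, Relb and Nfkbia) listed as higher, where 2.5% of all genes were. FGF2 cluster 12 had 0 of either, where 0.0748% of all genes were, so this 0 is not read as a difference between the clusters.

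Ligand and receptor overlapped in part. Cluster 3 was the 1 FGF2 cluster listed as higher for both genes, and cluster 8 was listed as higher for the ligand and lower for the receptor. Clusters 1, 7 and 12, 22.1% of the cells, were listed as higher for the receptor with no entry for the ligand. Clusters 2, 5, 11, 13 and 16, 22.7% of the cells, were listed as lower for both, clusters 4, 6 and 15 as lower for the ligand alone, and clusters 0, 9, 10 and 14, 24.9% of the cells, for neither. With Il33 in 79.8% and Il1rl1 in 60.3% of the cells of cluster 3 in the authors' deposited table, at least 40.1% and at most 60.3% of its cells had counts of both genes. In cluster 8 the range was 0.9% to 41.6%, and in cluster 2 it was 0 to 16.3%.

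Over the 7 clusters listed for both genes, clusters with more ligand-positive cells also had more receptor-positive cells, with a Pearson r of 0.99, and of 0.97 over 6 clusters without cluster 3. This is a description. The clusters come from 1 library, in 3 of them (11, 13 and 16) the median listed gene was found in under 30% of the cells, and clusters high for the receptor alone have no ligand value and drop out. Over all 17 clusters, with entries that are not listed put at a log ratio of 0, r was 0.68. The ratio of Il33 to Il1rl1 shares went from 1.43 in cluster 8 and 1.32 in cluster 3 to 0.82 in cluster 2 and 0.45 in cluster 13, so among these 7 clusters receptor-positive cells outnumbered ligand-positive cells in all but 3 and 8.

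**Figure D2:**
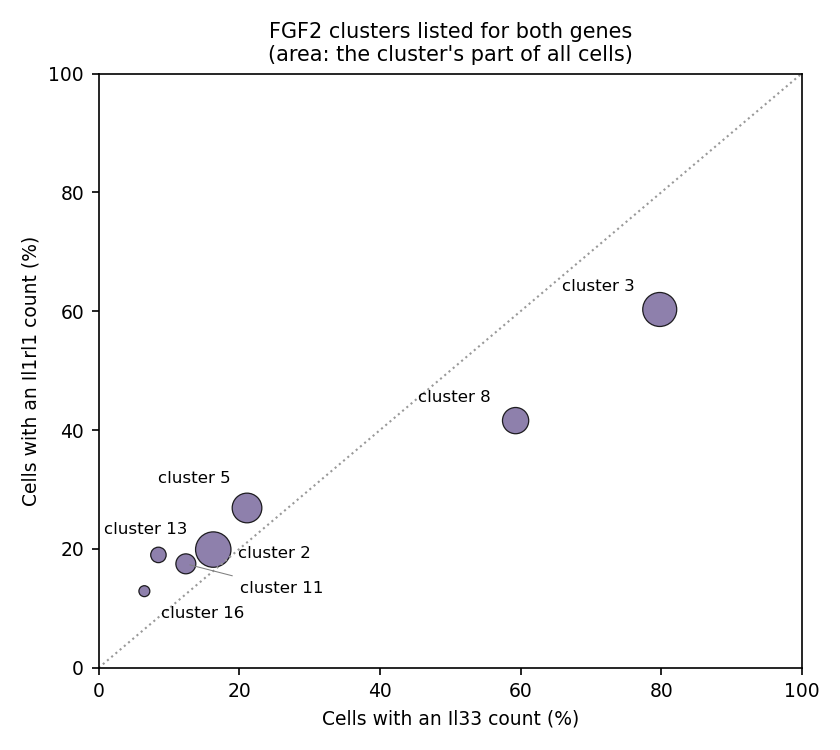
Share of cells with an Il33 count (horizontal, %) against the share with an Il1rl1 count (vertical, %) in the 7 FGF2 clusters listed for both genes in the authors' deposited table. The area of a point grows with the cluster's part of all FGF2 cells and the dotted line marks equal shares; clusters 3 and 8 lie on the ligand side of it and the other 5 on the receptor side.

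The genes around the receptor that could be compared lay within 1.5-fold between the libraries. Il1rap, the subunit that ST2 needs to signal, was found in 39.0% of the FGF2 cells and 37.7% of the control cells. Tmed1, a secretory pathway protein that binds ST2, was found in 51.7% of the FGF2 cells and 53.9% of the control cells. Of 52 symbols in 4 pathway lists (receptor complex, adaptors and kinases, NF-kB, other IL-1 family), 7 were listed in both libraries and none of them passed 1.5-fold, with a median log2 ratio of 0.03, against -0.08 over all 2318 genes. Of those 2318 genes 77.4% lay within 1.5-fold as well, so the count is not a result about the pathway. Tab2, an adaptor of the kinase Map3k7, was found in 51.3% of the FGF2 cells and 73.3% of the control cells. The NF-kB inhibitor Nfkbia was found in 53.8% of the FGF2 cells and 46.1% of the control cells, and its relative Nfkbiz in 45.8% of the FGF2 cells and 41.1% of the control cells. The IL-1 receptor Il1r1 was found in 51.9% of the FGF2 cells and 63.9% of the control cells, and its antagonist ligand Il1rn in 12.9% of the FGF2 cells and 12.6% of the control cells. Of 12 adaptors and kinases 11, among them Myd88, Irak4 and Traf6, had no entry in either library, which leaves their levels unknown.

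By cluster, Il1rap and Il1r1 had entries in partly other places than Il1rl1. In the authors' deposited table Il1rap was listed for FGF2 clusters 11, 13 and 15 alone, as lower in each (8.6%, 1.4% and 6.2% of cells), and its highest control share was 77.6% in the Schwann or glial-like cluster 10. Il1r1, the receptor of IL-1, was listed as higher in FGF2 clusters 5 (78.8% of cells against 49.8% outside) and 7 (82.4% against 50%) in the authors' deposited table. Cluster 7 was also listed as higher for Il1rl1, while cluster 5 was listed as lower for both Il33 and Il1rl1. In the mast cell-led cluster 15, where Il1rl1 has no entry, the authors' deposited table gave Il1r1 in 6.2% of cells and Il1rap in 6.2%, each lower than outside.

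Genes that IL-33 is known to induce in responding cells were a mixed group. Of 27 such symbols, 9 were listed in both libraries, 6 at least 1.5-fold higher in the FGF2 library, 1 lower and 2 within, with a median log2 ratio of 0.79. Over all 2318 genes compared, 7.46% were higher and 15.1% lower by the same rule. Ccl11, the eosinophil chemokine, was found in 56.7% of the FGF2 cells and 12.02% of the control cells. Dusp2, a phosphatase of MAP kinases, was found in 15.4% of the FGF2 cells and 1.32% of the control cells, and Csf2rb, the shared receptor subunit of IL-3, IL-5 and GM-CSF, in 7.09% of the FGF2 cells and 0.793% of the control cells. In the authors' deposited table, control Csf2rb was found in 37.7% of the macrophage-like cluster 11 against 0.4% outside. Control Dusp2 was found in 40% of the endothelial-like cluster 14 against 1.2% outside. Outside these clusters both control shares were low, so how far the libraries differ in them is uncertain. The remaining higher members were Ccl2 (69.2% of the FGF2 cells and 39.9% of the control cells), Ccl7 (78.8% of the FGF2 cells and 46.4% of the control cells) and Cxcl1 (25.6% of the FGF2 cells and 12.2% of the control cells). Vcam1, an adhesion molecule, was the lower member, in 42.1% of the FGF2 cells and 72.3% of the control cells, and Cxcl5 and Icam1 lay within. Many of these genes also respond to other signals, and whether IL-33 had a part was not tested. The type 2 cytokine genes Il4, Il5 and Il13 and also Il6 had no entry in either library.

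**Figure D3:**
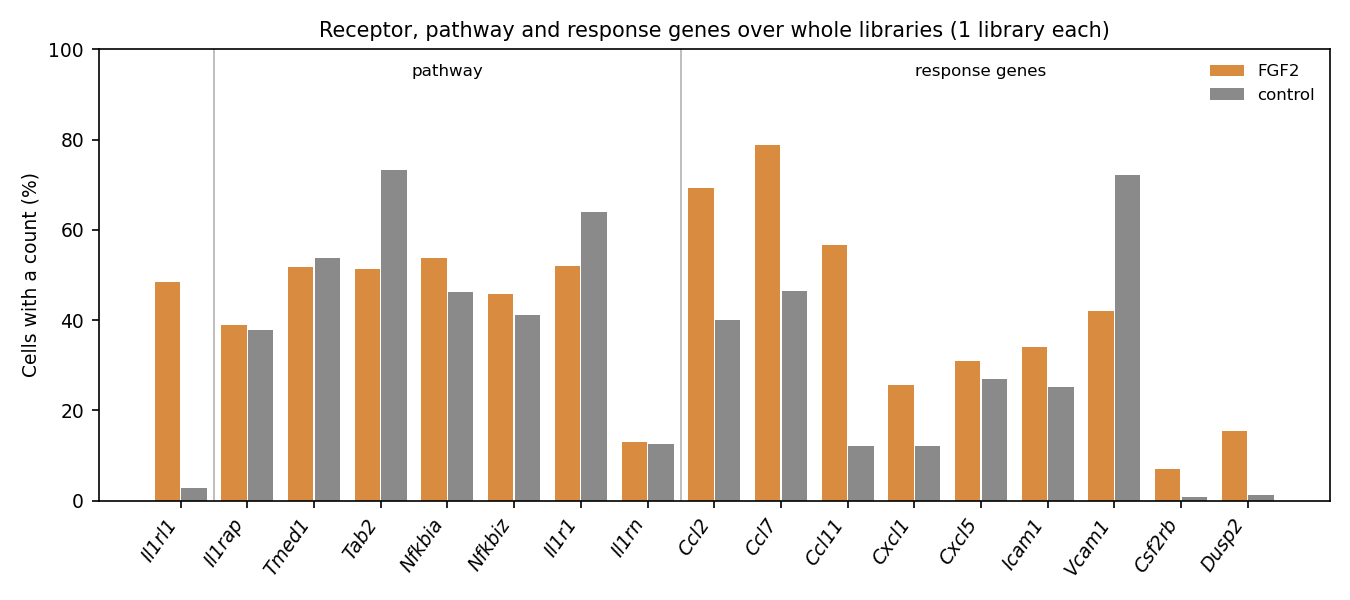
Percentage of cells with a count in all of the FGF2 library (orange, left bar) and all of the control library (grey, right bar) for Il1rl1, for the 7 pathway genes and for the 9 response genes that could be compared. There is 1 library a group and so no error bar. Il1rl1 stands at 48.4% in the FGF2 library and 2.90% in the control library. The pathway genes next to it lie within 1.5-fold, as do 77.4% of all 2318 genes compared.

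The genes whose log ratios over the 17 FGF2 clusters were most like those of Il33 were ranked among 623 genes listed for at least 4 clusters. Areg came first with a Pearson r of 0.96. It encodes amphiregulin, a ligand of the EGF receptor, and it was found in 34.5% of the FGF2 cells with no control entry. Both genes were listed for 9 clusters in common and with the same direction in all 9. Cluster 3 was the only one of these listed as higher, and the others were listed as lower for both genes. Cluster 8, listed as higher for Il33, has no Areg entry. In cluster 3 the authors' deposited table gave Areg in 64.2% of cells against 31.2% outside. Gm43154 (r = 0.85), Rarres2, the gene of chemerin (0.80), Ccl11 (0.78), Mmp10, a stromelysin (0.77), and the BMP antagonist Grem1 (0.74) followed, and Il1rl1 itself was 9th with 0.68.

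For Il1rl1 the likeness was weaker. The leading genes were Gch1, which makes the cofactor tetrahydrobiopterin (r = 0.73), Gm43154 (0.71), the urea transporter gene Slc14a1 (0.70), Areg (0.69), Slc16a11 (0.68) and Il33 (0.68). Gch1 was found in 70.9% of the FGF2 cells and 17.8% of the control cells, and Slc14a1 in 59.4% of the FGF2 cells with no control entry. The 17 clusters share a library and its processing, and these names change when other clusters are used.

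**Figure D4:**
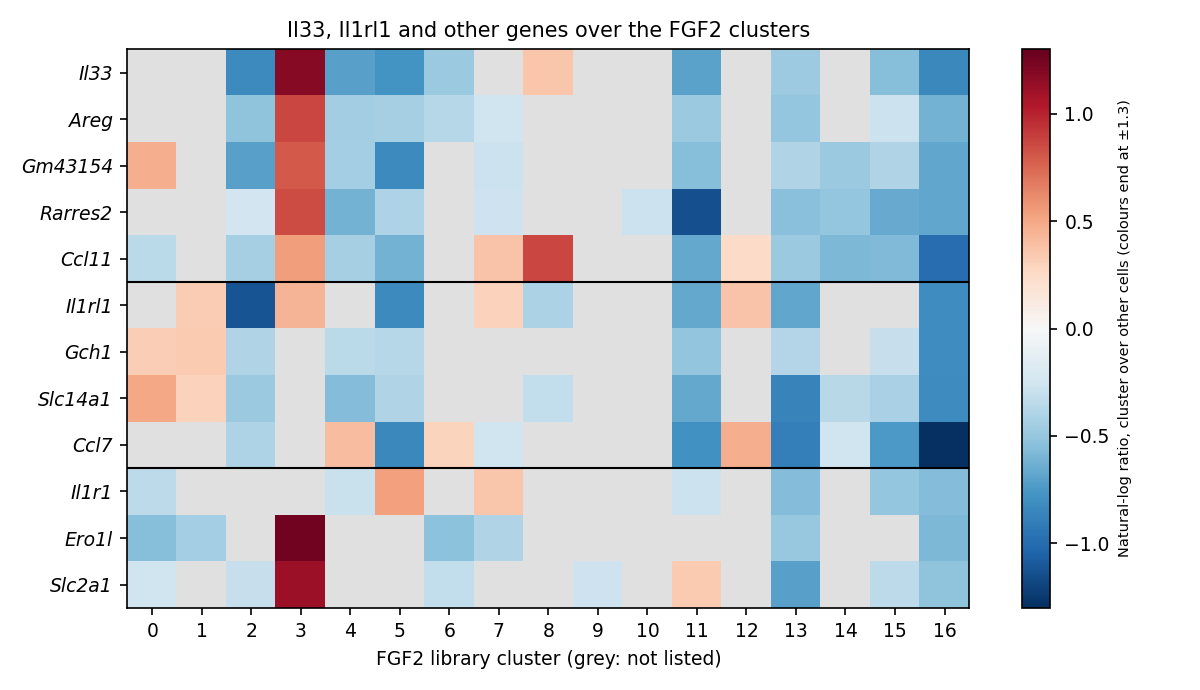
Natural-log ratio of the average in each FGF2 cluster (columns) over that in all other cells, from the authors' deposited table, for Il33 with 4 genes of like pattern, Il1rl1 with Gch1, Slc14a1 and the response gene Ccl7, and Il1r1, Ero1l and Slc2a1 below. Red is higher and blue lower in the cluster, and grey cells have no entry. Il33 and Areg have the same direction in all 9 clusters they share, higher in cluster 3 alone and lower in the others. Il1rl1 alone of the 2 members is red in clusters 1, 7 and 12.

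In the integrated table of both libraries the 2 genes led separate clusters. These are differences of batch-integrated values, not of expression, and the shares count corrected values above 0. Il33 was the leading gene by ratio of integrated cluster 6 (5.78% of the cells), with averages 4.25-fold over the other cells in the authors' deposited table. Il1rl1 was the leading gene of integrated cluster 8 (3.59% of the cells), at 2.58-fold in the authors' deposited table. Over all genes and integrated clusters 9.44% of pairs were listed, 4.13% as higher and 5.31% as lower.

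Integrated cluster 6 had Ero1l, Slc2a1 and Fam162a among its 5 leading genes and carried 11 of 18 hypoxia genes as higher, where 3% of all genes were. By average it was also listed as higher for Il1rl1, 2.15-fold in the authors' deposited table, though the share was 64.3% in the cluster against 65.6% outside. It was the integrated cluster listed as higher for both genes. The integrated data hold the same FGF2 cells, so this is not a second check. Integrated cluster 8 had Ccl7 among its 5 leading genes and no Il33 entry, as did FGF2 cluster 12, and Ccl2, Ccl7 and Ccl11 were again the response genes listed as higher. Of 18 hypoxia genes 0 were listed there as higher, where 1.75% of all genes were. The contractile integrated cluster 2, led by Acta2 and Tagln, was lower for both genes by average (2.04-fold for Il33 and 1.94-fold for Il1rl1 in the authors' deposited table). Its shares ran the other way, with Il33 in 75.8% of its cells against 57.3% outside and Il1rl1 in 87.1% against 61.8% in the authors' deposited table, so integrated shares were not read as detection. The ratios put 5 clusters lower for Il33 and 8 lower for Il1rl1, the endothelial-like cluster 13 and the epithelial-like cluster 9 in both.

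**Figure D5:**
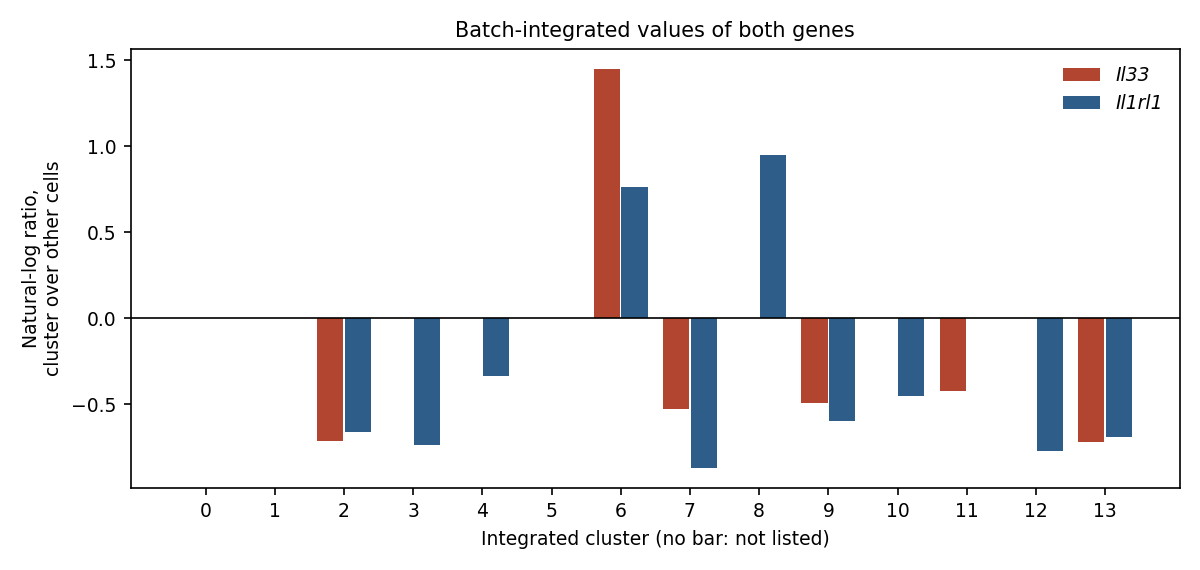
Natural-log ratio of the batch-integrated average in each of 14 integrated clusters over that in all other cells, for Il33 (red, left bar) and Il1rl1 (blue, right bar), from the authors' deposited table. Cluster 6 is positive for both genes, cluster 8 for Il1rl1 alone, and clusters 2, 7, 9 and 13 are negative for both.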

How the data were processed

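Cells of 1 FGF2 and 1 control library were captured on the 10x Chromium system and sequenced on an Illumina instrument, per the labels' protocols. Cell Ranger 4.0 and mm10 were used, per the submitters' processing notes. How cells were filtered, doublets treated, counts normalized and clusters made is not given here by any label or header. The 3 deposited tables hold fractions of cells (printed as percentages), natural log ratios of averages and p-values by cluster, per the file headers. The authors' p-values use cells as units and are not printed. The base of the log was checked on genes with no positive cell in several clusters (median coefficient of variation 0.00212% with the natural log and 0.0236% with base 2, over 5 FGF2 genes).

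Each cluster's part of the cells and each gene's library-wide share came from least squares over genes listed in at least 2 clusters (1490 FGF2 and 2077 control genes; residual root mean square 0.0242 and 0.0238 percentage points), checked on simulated tables. Genes with a share of at least 0.5% in 1 library were compared, with 0.1 points added and a size rule of 1.5-fold. Numpy 2.4.6, pandas 2.3.3 and Python 3.11.15 were used. The members and all lists were chosen with earlier results of these data known. Named genes are the members, the listed pathway genes and the 6 genes of most like pattern. With 1 library a group, no test was run. Cell barcodes were not analysed here, and marker shares outside their own clusters were added after the data were seen.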

Additional observations from a re-analysis of the deposited data

How the results depend on the processing

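The log2 ratio of Il1rl1 (FGF2 over control) was 4.02 as reported and stayed above the size rule under all 6 alternatives, from 3.66 with a pseudocount of 1 percentage point to 4.06 with none. It was 3.94 over stromal clusters and 3.77 without the clusters whose listed genes had a median share under 15%, both taking for clusters without an entry the permitted share that gives the smallest ratio; the limit of 15% was set after the data were seen. The count of pathway genes past the size rule was 0 of 7 under the same 6 alternatives. A stricter size rule or a larger pseudocount cannot raise this count, and the cluster settings took the permitted shares nearest to no difference. The unchanged 0 therefore says little. Counted by a share above that of the library, 2 listed FGF2 clusters carried Il33 and 4 carried Il1rl1, as by the listing; clusters without an entry could not be counted, and since their combined shares exceed those of the library, at least 1 more exists for each gene. Among listed clusters, cluster 3 led for Il33 by share and by ratio, and for Il1rl1 cluster 12 led by share and cluster 3 by ratio. The genes of like pattern depended on the setting. Of the 6 named for Il33, 0 were among the first 6 when shares in clusters listed for both genes were used and 4 with stromal clusters alone. For Il1rl1 the numbers were 2 and 2. The cause was not tested. The Il33 ratio between libraries and the alternative on averages were not run, because the tables give no control value and no absolute average. No paired analysis was possible because each group has 1 library.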

Other observations

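Genes that act before or beside the receptor were also seen. Tslp, another alarmin of barrier tissues, was found in 31.6% of the FGF2 cells with no control entry, and the authors' deposited table gave it in 58.6% of the contractile FGF2 cluster 4 against 29.3% outside, a cluster listed as lower for Il33 (31.9% against 42.5%). Of 13 proteases that act on IL-33, the mast cell genes Cma1, Mcpt4, Tpsb2 and Tpsab1 were listed for the mast cell-led FGF2 cluster 15 alone within the FGF2 library, and Capn2, a calpain, was found in 42.05% of the FGF2 cells and 66.8% of the control cells. Among 8 transcription factors tied to Il1rl1 in leukocytes, Gata2 and Gata3 had entries in the FGF2 library alone, over 2.95% and 0.866% of its cells. Rora was found in 58.5% of the FGF2 cells and 55.4% of the control cells, and Spi1 in 0.419% and 0.695%. Mitf was found in 49.98% of the FGF2 cells and 32.3% of the control cells. In the authors' deposited table Mitf was listed as higher in FGF2 cluster 7 (77.2% of cells against 48.2% outside) and control cluster 12 (68.3% against 32.0%), both listed as higher for Il1rl1. It was also listed as higher in FGF2 cluster 8 (77.1% against 48.4%), which is lower for Il1rl1. The same holds for control cluster 1 (60.9% against 27.4%), which has no Il1rl1 entry. FGF2 clusters 1, 3 and 12, higher for Il1rl1, have no Mitf entry. Of 12 adventitial fibroblast genes, 7 were compared, 4 of them at least 1.5-fold higher in the FGF2 library (Cd34, Ly6a, Ly6c1 and Twist2) and 1, Sfrp2, lower, where 7.46% of all 2318 genes compared were higher and 15.1% lower. Cd34 was listed as lower in FGF2 cluster 8 and Ly6a in FGF2 cluster 3, the clusters higher for Il33.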
